A study of Mus musculus with 6 samples.

Results

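The DNA replication fork was followed through 40 genes that encode its parts beyond the MCM2-7 ring: the helicase partners, the replicative polymerases, the sliding clamp, the clamp loaders, the single-strand binding protein RPA, the enzymes that process Okazaki fragments, RNase H2, and the proteins that stabilise and signal from the fork. The genes were listed by name from the known parts of the fork. Earlier results of these data were known when the list was made, so it is not independent of them. All 40 were among the 24062 gene symbols of the count table, and all 40 passed the filter on low counts that left 16904 genes for testing.

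RNA sequencing was performed on whole retinae of C57BL/6 mice (C57BL/6N in the study's methods) at postnatal day 21 (P21), 3 from Chx10-Cre Rb1/p107/Hells triple knockout (TKO) mice and 3 from Chx10-Cre Rb1/p107 double knockout (DKO) mice. Both groups carried conditional Rb1 alleles deleted by Chx10-Cre and a germline loss of p107 (gene symbol Rbl1), and the TKO mice also carried conditional alleles of Hells, which encodes a chromatin remodeling ATPase. Chx10-Cre acts in a mosaic of retinal progenitor cells, so each retina also holds cells that kept their conditional alleles. The comparison addresses what the additional loss of Hells does to retinae in which Rb1 and p107 were already targeted, and no retina with intact Rb1 and p107 was part of it. Library totals ranged from 10343907 to 14203098 counts, and libraries within a group differed by more than counting noise (chi-square per degree of freedom 7.60 to 21.8). Hells was lower in every TKO library than in every DKO library (log2 fold change -2.91, SE 0.225; edgeR quasi-likelihood test, adjusted p = 0.00359). Counts over whole genes do not isolate the deleted exons of the shared alleles: Rb1 had a log2 fold change of 0.34 (adjusted p = 0.0388). That call held in 1 of the 6 fits without a retina (adjusted p up to 0.129) and was lost under scaling by library totals (adjusted p = 0.176). Rbl1, at 13.5 to 27.5 normalized counts, had a log2 fold change of 0.13 (adjusted p = 0.839).

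At a fork, the GINS complex and CDC45 join the MCM2-7 ring to form the active CMG helicase. DNA polymerase alpha with primase lays down primers, DNA polymerase epsilon extends the leading strand and DNA polymerase delta the lagging strand, both held to the template by the PCNA clamp that the RFC complex loads. Many of these genes are targets of E2F transcription factors, which RB family proteins restrain, and most cells of a mature retina have left the cell cycle. In bulk retina, fewer cells of a type and less RNA per cell cannot be told apart.

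Of the 40 fork genes, 29 were lower in TKO than in DKO retinae and 0 were higher at an adjusted p of at most 0.05 (edgeR quasi-likelihood test, Benjamini-Hochberg adjustment over all genes tested). Among all 16904 genes, 9.20% were lower and 7.35% were higher by the same rule. DESeq2 also called 29 lower and 0 higher, against 10.4% of all genes lower. At an unadjusted p under 0.05 edgeR counted 31 fork genes lower and 0 higher. The share of all genes at that looser threshold was not counted. When a log2 fold change of at least 1 in size and a mean of 10 or more normalized counts were also required, 15 fork genes were differentially expressed, all lower, against 4.38% of all genes. The median log2 fold change of the 40 genes was -0.88, against -0.01 for all genes tested, and single genes ran from -2.39 (Ticrr) to 0.16 (Rnaseh2c). In 30 of the 40 genes every TKO library lay below every DKO library, a pattern found in 20.6% of all genes. In 1 gene, Chtf8, every TKO library lay above, and in 9 the groups overlapped.

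The number of calls after adjustment over all genes rested on single retinae. Without TKO replicate 2 the test called 7 fork genes lower, without DKO replicate 1 it called 9 and without DKO replicate 2 it called 8, while the share of all genes called lower fell to 2.41%, 2.99% and 2.60%. Without TKO replicate 1 it called 22, against 4.57% of all genes lower. Without TKO replicate 3 or DKO replicate 3 it called 29, against 11.8% and 10.3% of all genes lower. The fitted values moved less: the median log2 fold change stayed between -0.97 and -0.78 across these 6 fits. At an unadjusted p under 0.05 these edgeR fits counted 30 to 32 fork genes lower and 0 higher, against 31 lower with all retinae. The share of all genes at that looser threshold was not counted in these fits either, so these counts have no background beside them. Gins1, Pcna, Rfc5, Rpa2, Fen1, Lig1 and Tipin, 7 genes in all, passed the test in each of the 6 (adjusted p at most 0.0499), and the other 22 called genes lost the call in at least 1.

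**Figure D1:**
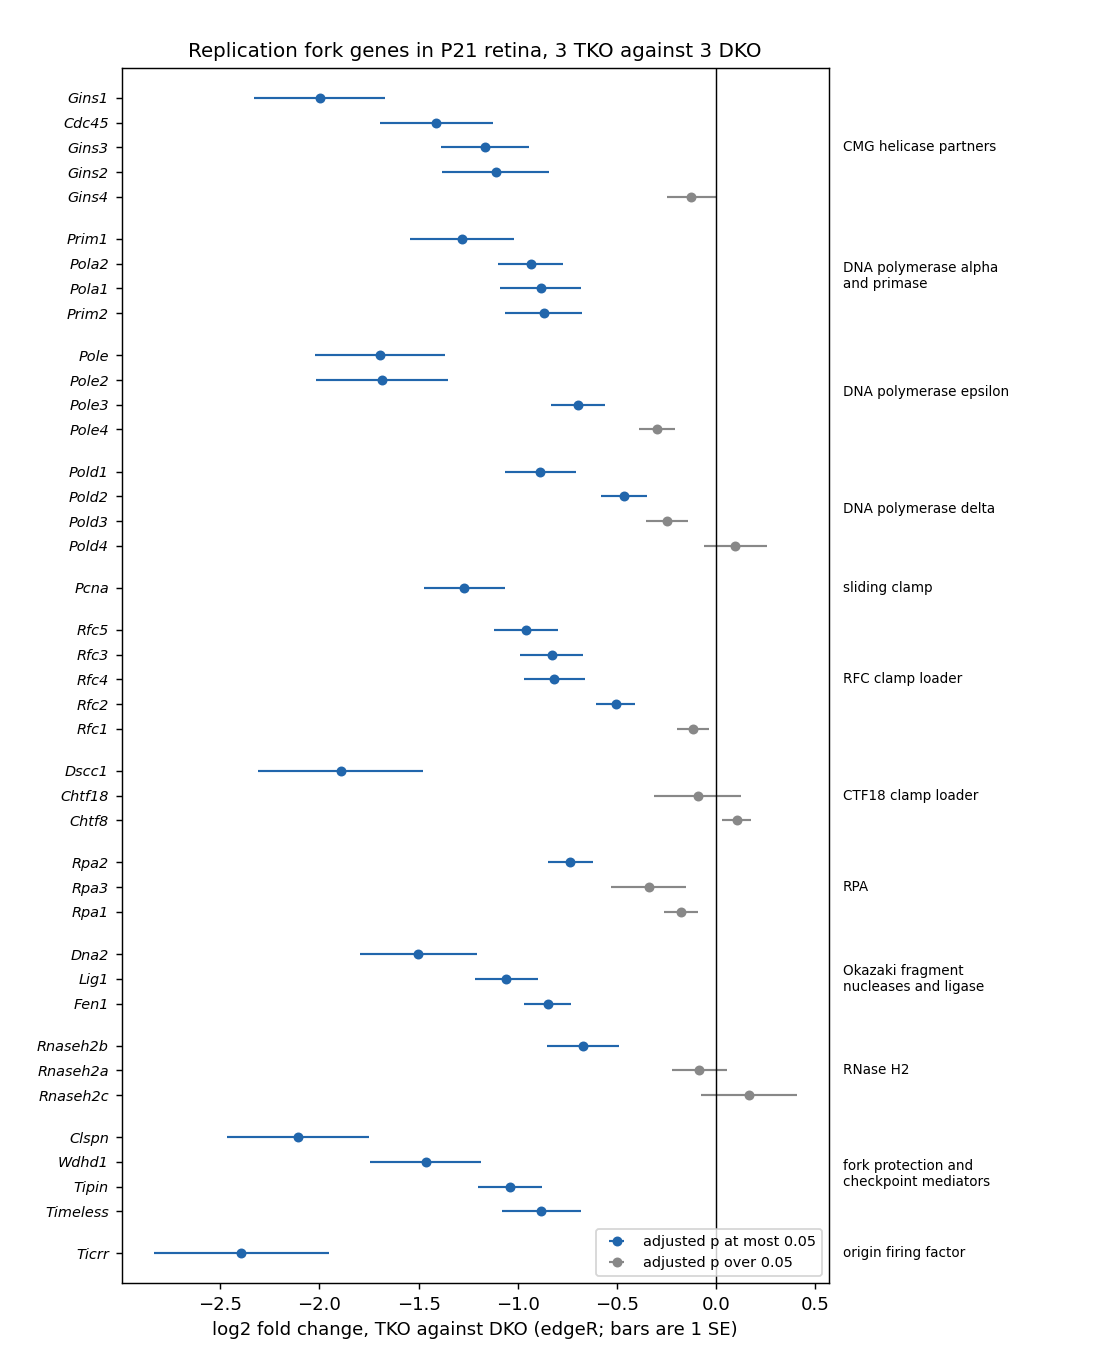
Fitted log2 fold change of each of the 40 fork genes (horizontal axis, TKO against DKO, edgeR) by role, with bars of 1 SE; blue points passed an adjusted p of 0.05 and grey points did not. The 29 blue points all lie left of 0, from Ticrr at -2.39 to Pold2 at -0.47, and the 11 grey points lie between -0.34 and 0.16.

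The helicase partners include the GINS subunits, which bridge the MCM ring and polymerase epsilon. Gins1 (ENSMUSG00000027454, chr2:150905400-150931280, plus strand, GRCm38) had normalized counts of 24.1, 35.8 and 67.5 in TKO replicates 1 to 3 and 185, 180.3 and 141 in the DKO replicates. The highest TKO value was below the lowest DKO value by a wide margin, and the fitted level was 3.99-fold lower (log2 fold change -2.0, SE 0.331, adjusted p = 0.00909). Gins4, the subunit of the same complex with the smallest difference, counted 192, 201 and 209.9 in the TKO libraries and 229.6, 231 and 196 in the DKO libraries (normalized counts). Its groups overlapped, and its log2 fold change of -0.12 did not pass (adjusted p = 0.524, 95% interval -0.41 to 0.16). As fitted folds, which are used for the genes that follow, Cdc45 fell 2.66-fold, Gins3 2.24-fold and Gins2 2.16-fold. Of the exon bases of Gins2, 67.3% are also exon of Gse1 on the opposite strand, whose means were 1660.5 (TKO) and 1329 (DKO) normalized counts, against 68.5 and 148 for Gins2. Whether the counting used strand was not stated, so reads of these overlapping genes may not be separate.

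All 4 genes of polymerase alpha and primase were lower, and their log2 fold changes spanned the narrowest range of any group of several genes, 0.41. Prim1, the catalytic primase subunit, had normalized counts of 186, 218 and 341 in TKO and 738, 643 and 425 in DKO (log2 fold change -1.28, SE 0.262, adjusted p = 0.0158). Prim2, the large primase subunit, had 181, 196 and 234 in TKO and 432, 416 and 269 in DKO (log2 fold change -0.87, SE 0.195, adjusted p = 0.0215). In both genes the groups did not overlap, and the third DKO retina was the DKO library nearest to the TKO values. Pola1, the catalytic polymerase subunit, fell 1.85-fold and its partner Pola2 1.91-fold.

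Polymerase epsilon split between its subunits. Pole, which carries the polymerase and proofreading activities, had normalized counts of 129.6, 149 and 285 in TKO and 800.0, 606 and 410.1 in DKO, 3.23-fold lower in the fit (log2 fold change -1.69, SE 0.328, adjusted p = 0.0134). Pole2 fell 3.22-fold, and Pole3, a histone-fold subunit, fell 1.62-fold. Pole4, the other histone-fold subunit, had normalized counts of 538, 585 and 639 in TKO and 738, 745 and 685 in DKO. Its groups did not overlap, but its log2 fold change of -0.30 narrowly missed the threshold (SE 0.0918, adjusted p = 0.0591, 95% interval -0.51 to -0.09).

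Polymerase delta differed less. Pold1, the catalytic subunit, had normalized counts of 242, 278 and 379 in TKO and 615, 578 and 468 in DKO (log2 fold change -0.89, SE 0.178, adjusted p = 0.0149). Pold4, the smallest subunit, had 159, 125 and 126 in TKO and 128, 119 and 137 in DKO, and its overlapping groups gave a log2 fold change of 0.10 (adjusted p = 0.711, 95% interval -0.27 to 0.46), or -0.06 under scaling by library totals. An annotated gene on the same strand shares 24.6% of the exon bases of Pold4. Pold2 fell 1.38-fold, and Pold3 had a log2 fold change of -0.25 that did not pass (adjusted p = 0.15).

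Pcna, the sliding clamp, had by far the highest level of the 39 genes whose exon length was unique, 1235 normalized counts per kb of exon in DKO retinae. Its normalized counts were 944, 1236 and 1512 in TKO and 3424, 3245 and 2224 in DKO (log2 fold change -1.27, SE 0.204, adjusted p = 0.00821). Every TKO library lay below every DKO library, and the fitted fold was 2.41. Annotated Pcna pseudogenes exist and reads with more than a single alignment were allowed, so part of its count could be shared with them.

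The RFC complex opens PCNA and loads it, and its 4 small subunits were lower while the large subunit did not pass the test. Rfc5 had normalized counts of 173, 158 and 169 in TKO and 376, 341 and 255 in DKO (log2 fold change -0.96, SE 0.161, adjusted p = 0.00942). Rfc1, the large subunit, had 1071, 1065 and 1168 in TKO and 1240.4, 1237 and 1107 in DKO, with overlapping groups (log2 fold change -0.12, adjusted p = 0.351, 95% interval -0.30 to 0.07). Rfc3 fell 1.78-fold, Rfc4 1.76-fold and Rfc2 1.42-fold.

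In the alternative CTF18 loader, CHTF18 takes the place of RFC1 and binds DSCC1 and CHTF8. Dscc1 had normalized counts of 13.8, 8.42 and 22.1 in TKO and 68.7, 61.3 and 33.7 in DKO, so the groups did not overlap although the counts were low (log2 fold change -1.89, SE 0.414, adjusted p = 0.0197). Chtf8 had 1846, 1886 and 1784 in TKO and 1734, 1770.2 and 1633 in DKO. Its TKO libraries all lay above the DKO libraries, but the log2 fold change of 0.10 did not pass (adjusted p = 0.358) and turned to -0.06 under scaling by library totals alone. The symbol Chtf8 names 2 annotated genes at chr8:106883863-106893601, of which the second covers 91.8% of the exon bases of the first, so its count cannot be assigned to CHTF8 alone. Chtf18 itself had a log2 fold change of -0.09 (adjusted p = 0.799, 95% interval -0.60 to 0.41).

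RPA coats single-stranded DNA at the fork and during repair. Rpa2 had normalized counts of 299, 344 and 358 in TKO and 582, 587 and 498 in DKO, with no overlap (log2 fold change -0.73, SE 0.113, adjusted p = 0.00766). Rpa1, the large subunit and the second most highly expressed of the fork genes per kb, had 2525, 2292 and 2335 in TKO and 2718, 2886 and 2484 in DKO. Its groups overlapped (log2 fold change -0.18, adjusted p = 0.191, 95% interval -0.37 to 0.02), as did those of Rpa3 (log2 fold change -0.34, adjusted p = 0.247).

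The enzymes that trim and seal Okazaki fragments were all lower. Dna2, a nuclease and helicase, had normalized counts of 109, 123 and 219.7 in TKO and 529, 446 and 299.6 in DKO (log2 fold change -1.50, SE 0.294, adjusted p = 0.0138). Fen1, the flap endonuclease, had 288, 281 and 325 in TKO and 569, 574 and 465 in DKO (log2 fold change -0.85, SE 0.119, adjusted p = 0.007), the smallest adjusted p of the 40 genes. Genes on the opposite strand share most of the exon bases of Fen1: 78.8% with Gm10143 and 5.37% with Tmem258, and Tmem258 had a log2 fold change of 0.03 (adjusted p = 0.907). Lig1, the ligase that joins the fragments, fell 2.08-fold.

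RNase H2 removes ribonucleotides from DNA and is not limited to dividing cells. Rnaseh2b, an accessory subunit, had normalized counts of 119, 132 and 137 in TKO and 223, 237 and 158 in DKO (log2 fold change -0.67, SE 0.18, adjusted p = 0.0386). Rnaseh2c, the other accessory subunit, had 55.0, 60.0 and 71.2 in TKO and 41.4, 57.8 and 66.5 in DKO, and its overlapping groups gave a log2 fold change of 0.16 (adjusted p = 0.674, 95% interval -0.39 to 0.72). The catalytic subunit Rnaseh2a had a log2 fold change of -0.08 (adjusted p = 0.712). Exons of Kat5 on the opposite strand cover 24.8% of those of Rnaseh2c.

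All 4 fork protection genes were lower. Clspn encodes claspin, which relays the stalled-fork signal to CHK1, and had normalized counts of 74.5, 132 and 228 in TKO and 786, 615 and 465 in DKO, 4.31-fold lower in the fit (log2 fold change -2.11, SE 0.355, adjusted p = 0.00957). Timeless, which with TIPIN stabilises the fork, had 273, 303 and 471 in TKO and 733, 607 and 587 in DKO (log2 fold change -0.88, SE 0.199, adjusted p = 0.0218). Wdhd1, which links the helicase to polymerase alpha, fell 2.76-fold and Tipin 2.05-fold.

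Ticrr (also called treslin), which helps to load CDC45 when origins fire, had the lowest fold change of the 40 genes. Its normalized counts were 14.9, 28.4 and 54.0 in TKO and 225, 181 and 103 in DKO, 5.25-fold lower in the fit (log2 fold change -2.39, SE 0.442, adjusted p = 0.012). The highest TKO value remained below the lowest DKO value.

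**Figure D2:**
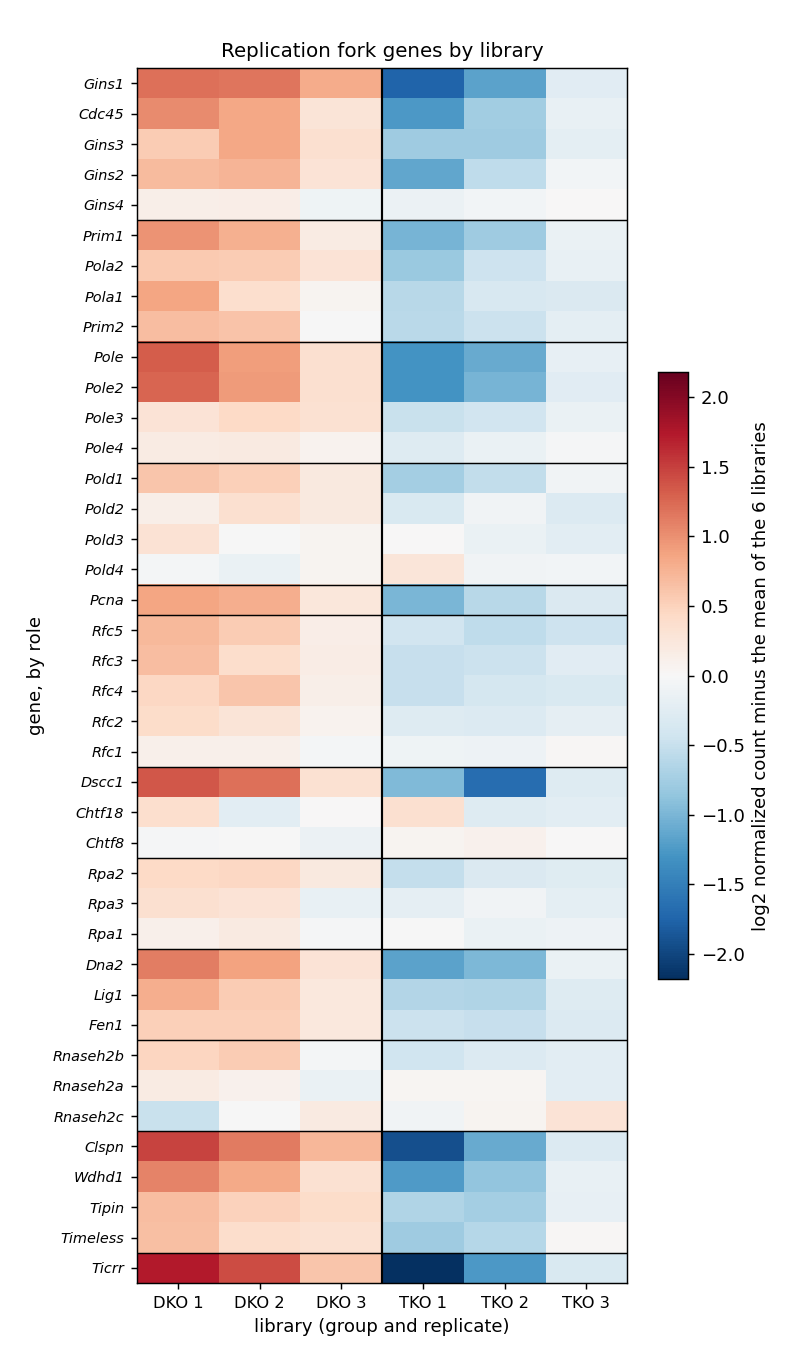
Each cell is the log2 normalized count of a fork gene (rows, grouped by role) in a library (columns), minus the mean of the 6 libraries; red is higher and blue is lower. TKO 3 and DKO 3 are the palest columns. TKO 3 was the highest TKO library in 31 of the 40 genes and DKO 3 the lowest DKO library in 34. These ranks were not counted over all genes.

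The retinae also differed within each genotype. Summed over the 40 genes, CPM (counts scaled to a common library total) were 1073, 1110.4 and 1259 in the TKO libraries and 2023, 1888 and 1538 in the DKO libraries. Which library ranked highest or lowest in its group was counted for the fork genes only, not for all genes tested. Of the 29 genes called lower, 27 had their highest TKO value in TKO replicate 3. Of the same 29, 27 had their lowest DKO value in DKO replicate 3. Hells followed the same order, at normalized counts of 60.8, 68.4 and 83.4 in TKO and 678, 523 and 395 in DKO. Summed CPM of 8 proliferating cell markers (such as Mki67 and Top2a) were 35.6, 66.7 and 149 in TKO and 795, 579 and 368 in DKO, the same order again. All 8 of those markers were lower in TKO retinae, with a median log2 fold change of -2.71. The 8 rod photoreceptor markers were all higher (median 1.82), with sums of 26237 to 53816 CPM in TKO and 8970 to 17084 in DKO, and 6 of 8 microglia markers were lower, with sums of 92.1 to 165 in TKO and 220.3 to 317 in DKO. Lens markers summed to 39.9 to 263 in TKO, highest in replicate 2, and to 8.26 to 8.33 in DKO, and 4 of 7 were higher. Of the other marker lists, 2 of 6 cone, 1 of 6 bipolar, 2 of 5 Muller glia, 1 of 5 endothelial and 1 of 5 pigment epithelium markers were higher, and edgeR called 0 of 6 amacrine, 0 of 4 horizontal and 0 of 5 ganglion cell markers. In those 3 lists, 1 amacrine and 2 horizontal markers were lower and 1 ganglion cell marker higher at an unadjusted p under 0.05. DESeq2 called 1 amacrine and 1 horizontal marker lower. By the unadjusted edgeR rule 6 of 6 cone and 2 of 6 bipolar markers were higher. Of 5 Muller glia markers, 2 were higher and 1 lower by that rule. The part of these markers in the fork gene values was not tested.

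Levels were also compared per kb of exon. In DKO retinae the median level was 86.5 normalized counts per kb over the 29 genes called lower and 136 over the 10 genes that were not called and had a unique exon length. The calls came from the same comparison and depend on the DKO values too, so these medians are a description only. No TKO level is set beside them. Within the GINS and CDC45 group, levels ran from 36.1 to 162 per kb in DKO and from 16.7 to 149 in TKO. For polymerase epsilon they ran from 44.1 to 288 in DKO and from 13.8 to 234 in TKO, so the span between the lowest and highest subunit went from 6.52-fold to 17.02-fold. Polymerase alpha and primase spanned 3.01-fold in DKO and 2.30-fold in TKO. Polymerase delta, with the narrowest DKO span of the groups of several genes, spanned 1.79-fold in DKO and 2.47-fold in TKO.

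The balance between partners was compared as the log2 ratio of counts per kb of each gene to a reference gene of its group inside the same library, which does not depend on how libraries are scaled. Of 27 ratios, 16 did not overlap between the groups, 6 higher and 10 lower in TKO. Ratios within a group share their reference gene, so they are not separate results. The share of other gene pairs with such a pattern was not counted. With 3 libraries against 3 the smallest p an exact two-sided permutation test can give is 0.1, and 0.169 after adjustment over the 27, so none could pass. The ratio of Pole4 to Pole was 4.20, 4.12 and 3.32 in TKO and 2.04, 2.45 and 2.89 in DKO, a mean difference of 1.42 on the log2 scale. The ratio of Gins4 to Cdc45 was 2.44, 2.02 and 1.48 in TKO and 0.43, 0.62 and 0.94 in DKO, a difference of 1.32. In both, and in the ratios given next, the direction follows from the fold changes of the paired genes given above. None of them is a separate result. Each ratio is to the reference gene alone, not to the whole group. The ratio of Dscc1 to Chtf18 was -3.68, -3.74 and -2.44 in TKO and -1.43, -0.998 and -2.09 in DKO. The ratio of Clspn to Timeless was -2.10, -1.43 and -1.28 in TKO and -0.13, -0.21 and -0.57 in DKO, and all 4 small RFC subunits were lower against Rfc1, by 0.38 to 0.82. The ratio of Pole2 to Pole hardly differed: it was -0.26, -0.18 and -0.34 in TKO and -0.32, -0.27 and -0.27 in DKO (difference 0.03, exact p = 0.6).

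**Figure D3:**
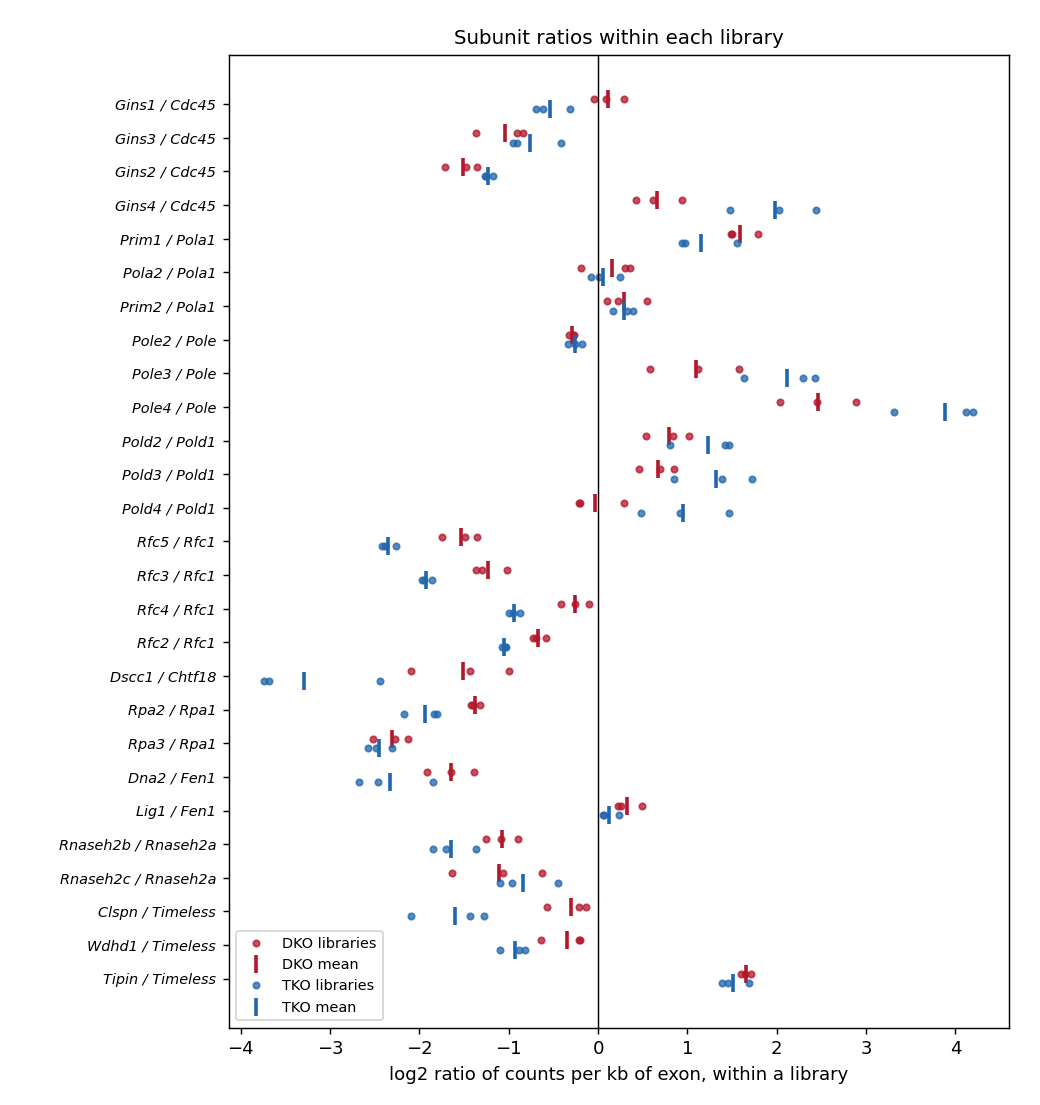
Log2 ratio of counts per kb of exon of each gene to the reference gene of its group (horizontal axis), with a point for each library and a bar for the mean, TKO in blue and DKO in red. The groups separate in 16 of 27 ratios, such as Pole4 to Pole, and lie on top of each other in others, such as Pole2 to Pole. Other gene pairs were not counted.

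Promoter sequences were set beside these values because 29 of the 40 fork genes were lower in the same comparison. RefSeq windows (GRCm38.p6) of 250 bases before to 50 after the start were found for 31 of the 40 genes. The E2F words TTTCCCGC, TTTCGCGC, TTTGCCGC and TTTGGCGC were searched on both strands, and 9 of the 31 genes (29%) held at least 1, against 4.18% of the tested genes with a window. Among the genes called lower 7 of 21 held the word, and among the others 2 of 10. The box CCAAT was held by 16 of the 31 genes (51.6%), against 42.0% of tested genes, and the cell cycle element TTTGAA by 5 (16.1%), against 14.3%; both were searched on both strands, and neither is contained in an E2F word. Each match is printed in 30 bases of the gene's strand, with the E2F word in capitals as it reads on that strand. Pold3 and Pole4, the last of these, were not called lower.
Clspn (chr4:126556990-126557019, plus strand): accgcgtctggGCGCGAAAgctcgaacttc
Gins3 (chr8:95633507-95633536, plus strand): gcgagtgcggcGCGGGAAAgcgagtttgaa
Lig1 (chr7:13278841-13278870, plus strand): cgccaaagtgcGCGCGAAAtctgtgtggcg
Pola1 (chrX:93632275-93632304, minus strand): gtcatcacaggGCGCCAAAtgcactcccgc
Pold1 (chr7:44548766-44548795, minus strand): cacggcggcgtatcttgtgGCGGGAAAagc
Pole2 (chr12:69228162-69228191, minus strand): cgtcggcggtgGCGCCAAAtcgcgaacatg
Rfc3 (chr5:151651190-151651219, minus strand): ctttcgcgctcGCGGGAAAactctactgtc
Rfc3 (chr5:151651200-151651229, minus strand): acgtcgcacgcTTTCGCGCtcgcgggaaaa
Pold3 (chr7:100121467-100121496, minus strand): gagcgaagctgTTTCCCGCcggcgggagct
Pole4 (chr6:82652890-82652919, minus strand): ctctacccggcGCGGGAAAggggccgaaat

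The 8 letters began -41 bases from the start base (position 0) in Gins3, -138 in Pola1 and -34 in Pole4, and between 10 and 39 bases after it in Clspn, Lig1, Pold1, Pold3 and Pole2. Rfc3 held 2 words, at -10 and 0. The 250 bases before the start are given for Ticrr, the gene with the largest fall, and for Pola1, the only gene with an E2F word in these bases whose stretch holds no annotated exon. Ticrr held no E2F word in its window but 4 CCAAT boxes, 3 of them whole in these bases, and Pola1 held an E2F word and a CCAAT box read on the opposite strand. Capitals mark these matches, which are a description of letters and not evidence of binding.
Ticrr (chr7:79659946-79660195, plus strand): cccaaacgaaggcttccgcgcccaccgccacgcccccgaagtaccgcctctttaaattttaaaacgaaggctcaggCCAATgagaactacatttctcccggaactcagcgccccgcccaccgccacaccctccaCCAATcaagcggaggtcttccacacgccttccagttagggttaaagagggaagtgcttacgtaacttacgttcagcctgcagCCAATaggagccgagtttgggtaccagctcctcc
Pola1 (chrX:93632156-93632405, minus strand): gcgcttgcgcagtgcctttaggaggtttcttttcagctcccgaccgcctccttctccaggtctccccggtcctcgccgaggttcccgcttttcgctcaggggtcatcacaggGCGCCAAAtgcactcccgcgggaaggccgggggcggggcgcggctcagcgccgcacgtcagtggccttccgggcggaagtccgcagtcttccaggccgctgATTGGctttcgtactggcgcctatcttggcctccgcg

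Related genes were read from the same fit. All 6 genes of the MCM2-7 ring were lower, with a median log2 fold change of -1.66. Of 10 other initiation and firing genes 6 were lower and 0 higher (median -1.31), from Dbf4, the activator of the firing kinase, at -2.43 (adjusted p = 0.007) to Cdc7, the kinase itself, at -0.38 (adjusted p = 0.202). Of 13 other genes that act at forks 9 were lower and 0 higher (median -0.91), from the exonuclease gene Exo1 at -2.46 to the telomere replication gene Ten1 at 0.26. By contrast, of 12 repair and translesion polymerase genes 0 were lower and 0 higher by edgeR or DESeq2 (median -0.09), from Poln at -0.63 to Poll at 0.30. At an unadjusted p under 0.05 edgeR counted 3 of them lower and 2 higher. Of 8 mitochondrial replication genes, 1 was lower, the helicase gene Peo1 (Twnk) at -0.43, and 1 was higher, the polymerase accessory gene Polg2 at 1.27. No test of the difference between these lists was made.

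**Figure D4:**
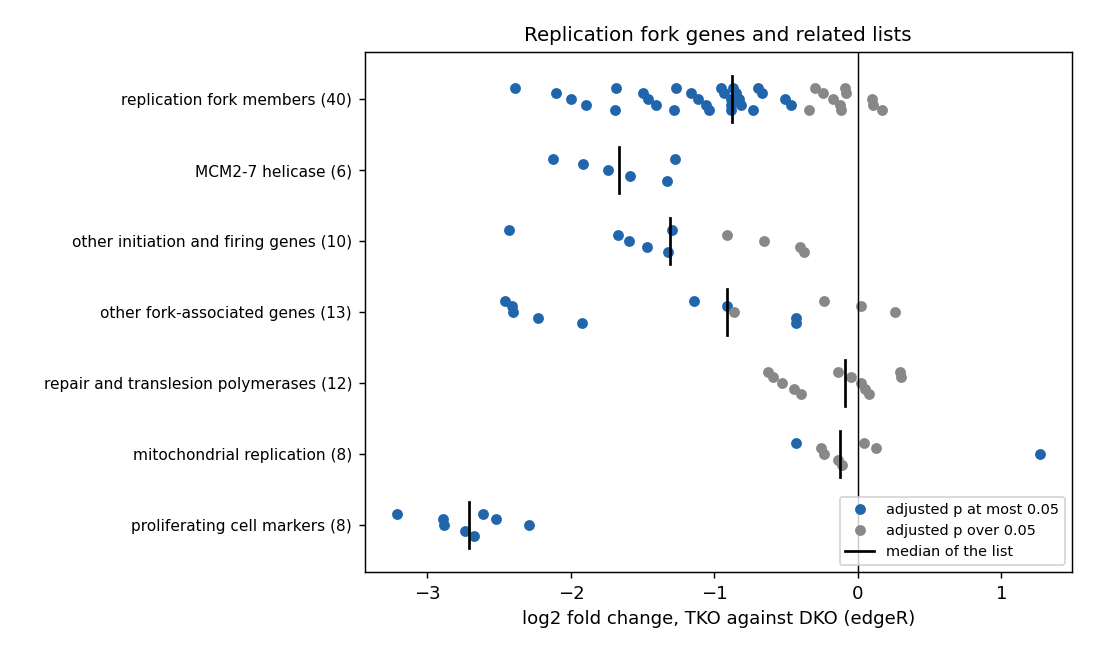
Log2 fold change (horizontal axis, TKO against DKO) of each gene of the 40 fork genes and of 6 related lists, with list sizes in parentheses, blue for an adjusted p of at most 0.05 and grey otherwise, and a black bar at the median. Medians run from -2.71 for the proliferating cell markers to -0.09 for the repair and translesion polymerases, with the fork genes at -0.88.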

How the data were processed

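RNA was sequenced from 6 retinae (TruSeq Stranded mRNA). The authors deposited raw counts per gene symbol. The methods name STAR and HTSeq on GRCm38, with up to 3 alignments per read, and the submitters' processing notes name TopHat2 and featureCounts; which made the counts, and their strand setting, was not resolved.

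Groups came from the sample titles. No column was left over (0). Genes with a count sum of at least 10 were fitted with edgeR 4.0.16 (R 4.3.3; TMM, quasi-likelihood F test, no covariates), the p-values adjusted over all of them; DESeq2 1.42.0 gave the mean normalized count for the differential expression criteria and was an alternative fit. The sources do not tie each library to a separate animal or litter, so p-values measure only the spread between these retinae. Normalized counts were scaled to the mean effective library size, SE is the log2 fold change over the root of F, and ratios had 0.5 added to counts. Exon lengths and overlaps came from GENCODE vM21 (GRCm38), whose release differs from the authors' annotation. For each role group the genes with the lowest and highest fold change were given in every library. Members and lists were chosen with earlier results of these data known. The fit was tested on simulated counts. Alternatives were other scalings and filters, robust dispersion, a replicate block, a 1.5-fold test, and leaving out each retina.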

Additional observations from a re-analysis of the deposited data

How the results depend on the processing

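DESeq2, RLE and upper quartile scaling, no filter on low counts, filterByExpr and robust dispersion each gave 29 fork genes lower and 15 differentially expressed, with medians from -0.91 to -0.87. The share of all genes lower ran from 8.32% to 10.8% in these settings. Scaling by total counts only gave 32 and 22, with a median of -1.03. It also moved the median of all genes to -0.17 and raised the share of all genes lower to 15.4%. A test against a 1.5-fold change left 3 differentially expressed. The share of all genes differentially expressed was counted in the main fit only. Leaving out a retina gave 7 to 29 lower, 2 to 19 differentially expressed and medians from -0.97 to -0.78, the lowest counts coming without TKO replicate 2, DKO replicate 1 or DKO replicate 2; a change of median was judged against the SD of these 6 values. The share of all genes lower ran from 2.41% to 11.8% over these 6 fits. Of the 6, Clspn lost its call only in that without TKO replicate 2 (adjusted p = 0.0505).

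With the replicate number as a block, 0 fork genes were lower (edgeR, smallest adjusted p = 0.0566) and 0 differentially expressed. By the same adjusted rule 0.485% of all genes were lower, and 106 of all genes were called in either direction. The median of the fork genes was -0.85. At an unadjusted p under 0.05, 31 fork genes were lower, and the share of all genes at that threshold was not counted. The replicate numbers are only names: deviations of same-numbered retinae correlated at 0.04, -0.04 and -0.12.

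Among genes without a call the direction turned with total counts for Pold4 (-0.063), Chtf8 (-0.056) and Rbl1 (-0.036). Over the fits without a retina the log2 fold change ran from -0.026 to 0.16 for Pold4, from -0.32 to 0.079 for Chtf18, from -0.17 to 0.0046 for Rnaseh2a, from -0.0033 to 0.32 for Rnaseh2c and from -0.15 to 0.36 for Rbl1; the cause was not tested. Ratios whose groups did not overlap numbered 16 to 21 across these settings. Depth limits Dscc1 most, with 8.42 normalized counts in its lowest library.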
